A study of Mus musculus with 27 samples.

Results

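Oxidative phosphorylation genes encode the nuclear subunits of the respiratory chain and of ATP synthase, the machinery with which mitochondria turn the oxidation of nutrients into ATP. Every gene symbol of the array annotation that begins with Nduf, Uqcr or Atp5, or with Cox4 to Cox8, was taken, together with Sdha to Sdhd and Cyc1. These were 91 genes of 18193 symbols on the array. The rule uses no expression value, but it was set with earlier results of these data known. Ribosome-bound messenger RNA was measured on 27 Affymetrix arrays of striatum from male mice aged 2 to 5 months, by translating ribosome affinity purification (TRAP). In this method the ribosomal protein L10a, fused to GFP, is expressed from the receptor gene's promoter on a bacterial artificial chromosome, and the tagged ribosomes are pulled down with their messages.

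The D1 groups carried Drd1-TRAP and the D2 groups Drd2-TRAP, each meant to mark medium spiny neurons (MSN) with that dopamine receptor. Any other cell in which that promoter is active would carry the tag as well. TRAP line and neuron type are 1 factor. All mice carried both floxed copies of G9a (G9a fl/fl; the gene is Ehmt2), a histone H3 lysine 9 methyltransferase. Controls had no Cre, and mutants also carried Drd1-Cre or Drd2-Cre to match their tag, so genotype stands for G9a loss and for the Cre transgene together. The strain was a mix of C57BL/6, from the G9a line, and 129/Sv, from the BAC line, after 2 generations of backcrossing to C57BL/6. Saline or cocaine (20 mg/kg/day) was injected 8 times, and tissue was collected 2 h after the final dose. The D1 control groups held 2 saline and 4 cocaine arrays, the D2 control groups 3 and 4, the D1 mutant groups 3 and 4, and the D2 mutant groups 3 and 4. The source name of D2 mutant cocaine replicate 4 says control, while its title, genotype and description say mutant; it was taken as mutant.

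The labels were checked against markers. In both genotypes D1 arrays were higher for the 9 listed D1 MSN genes that were tested and lower for the 7 such D2 genes, and Drd2 lay between 6.33 and 7.05 in the D1 controls against 12.94 to 13.60 in the D2 controls. Ehmt2 lay between 8.03 and 9.37 in the D1 mutants against 9.95 to 10.74 in the D1 controls, and between 8.68 and 9.38 in the D2 mutants against 10.67 to 11.02 in the D2 controls. Values throughout are the deposited log2 signals, and their differences are log2 differences between groups, each gene against itself, because signals of different probes cannot be ranked against each other.

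The respiratory chain passes electrons from NADH through complex I (NADH dehydrogenase) and from succinate through complex II (succinate dehydrogenase) to coenzyme Q. Complex III (the cytochrome bc1 complex) hands them to cytochrome c, and complex IV (cytochrome c oxidase) to oxygen. Complexes I, III and IV pump protons, and complex V (ATP synthase) uses the resulting gradient to make ATP. Neurons draw most of their ATP from this pathway, and ion pumping after synaptic input and action potentials is a large part of its use. The subunits made in the nucleus are translated on cytosolic ribosomes, which is where TRAP samples them, and the subunits encoded by mitochondrial DNA are not part of the set.

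By complex, the 91 genes were 34 of complex I (Nduf subunits), 8 complex I assembly factors (Ndufaf1 to Ndufaf8), 4 of complex II, 9 of complex III, 19 of complex IV and 17 of complex V. Ndufa4 and Ndufa4l2 were counted with complex IV, because the Ndufa4 protein is a subunit of that complex despite its name. To be tested a gene needed 3 or more arrays with a log2 signal above 6, and 84 of the 91 had them. The other 7, Ndufb4, Cox4i2, Cox6b2, Cox7a1, Cox7b2, Cox7c and Cox8b, exceeded 6 on no array with the probe sets that name 1 gene. Of these, Cox4i2, Cox6b2, Cox7a1, Cox7b2 and Cox8b are isoforms known mainly from lung, testis, heart or skeletal muscle. A further 8 symbols that fit the names, Ndufs6 and Ndufa11 among them, were only on probe sets shared with other genes and were not used. Of the 84, 72 belonged to the brightest 20% of the 12017 genes tested, and for 22 of the 91 the probe set is of a design that may also bind related transcripts.

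Promoters were looked at because the members moved together. RefSeq windows (GRCm38.p6) from 250 bases before to 50 bases after the start of the gene were found for 74 members, as 79 windows. Letters known from nuclear genes for mitochondrial proteins were searched on both strands: GCGCA and GCGC joined by any base for NRF1, CCGGAAG for ETS factors such as GABPA, AAGATGGC for YY1 and TGACCTTG for estrogen-related receptors (ERR). No match of one motif overlapped a match of another. The letters were chosen with the counts of other forms known. The NRF1 letters were in 22.8% of the members' windows, 9.49% of the 12478 windows of all tested genes and 4.6% of all 32851 windows. The ETS letters were in 24.1%, 16.3% and 8.86%, the YY1 letters in 12.7%, 4.34% and 2.75%, and the ERR letters in 5.06%, 1.18% and 1.56%. At least 1 of the 4 was in 41 of the 79 windows, 51.9%, against 27.7% of the windows of all tested genes.

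The 250 bases before the start are shown for 5 genes, 5′ to 3′ on the gene's strand with matches in capitals. For complexes I, III, IV and V it is the gene with the largest difference between D1 and D2 controls among those called lower in D1 and holding a match there. Sdha, the flavin-bearing subunit of complex II, is shown as a gene that was not called. All 5 lie on the minus strand, Ndufs5 at chr4:123718187-123718436, Uqcr11 at chr10:80406822-80407071, Cox6a1 at chr5:115348959-115349208, Atp5l at chr9:44920743-44920992 and Sdha at chr13:74350241-74350490.
Ndufs5: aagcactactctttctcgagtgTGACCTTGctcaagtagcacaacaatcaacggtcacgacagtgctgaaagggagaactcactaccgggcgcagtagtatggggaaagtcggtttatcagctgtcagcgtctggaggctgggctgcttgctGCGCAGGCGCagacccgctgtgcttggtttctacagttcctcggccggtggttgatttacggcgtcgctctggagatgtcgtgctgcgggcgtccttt
Uqcr11: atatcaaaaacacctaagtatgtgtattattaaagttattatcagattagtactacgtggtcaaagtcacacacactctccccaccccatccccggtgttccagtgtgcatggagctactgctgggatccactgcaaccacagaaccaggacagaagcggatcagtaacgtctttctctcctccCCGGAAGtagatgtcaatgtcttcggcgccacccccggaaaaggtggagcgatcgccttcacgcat
Cox6a1: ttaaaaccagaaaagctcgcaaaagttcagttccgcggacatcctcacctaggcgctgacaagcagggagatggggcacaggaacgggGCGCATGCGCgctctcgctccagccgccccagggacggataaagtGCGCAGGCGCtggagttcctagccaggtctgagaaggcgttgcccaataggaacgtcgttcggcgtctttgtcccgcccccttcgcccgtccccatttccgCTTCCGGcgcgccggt
Atp5l: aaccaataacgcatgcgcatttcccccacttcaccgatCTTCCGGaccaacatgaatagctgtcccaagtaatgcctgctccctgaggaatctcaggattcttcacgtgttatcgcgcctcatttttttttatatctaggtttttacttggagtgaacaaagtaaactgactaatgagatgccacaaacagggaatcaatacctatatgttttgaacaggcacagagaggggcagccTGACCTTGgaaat
Sdha: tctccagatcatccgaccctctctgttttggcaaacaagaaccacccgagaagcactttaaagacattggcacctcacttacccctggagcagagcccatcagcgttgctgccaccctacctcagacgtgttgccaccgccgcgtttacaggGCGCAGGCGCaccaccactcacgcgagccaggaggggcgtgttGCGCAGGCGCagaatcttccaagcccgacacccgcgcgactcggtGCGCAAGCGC
The Ndufs5 stretch holds the ERR and the NRF1 letters, that of Uqcr11 the ETS letters, that of Cox6a1 the NRF1 letters at 2 places and the ETS letters at 1, and that of Atp5l the ETS and the ERR letters. The Sdha stretch holds the NRF1 letters at 3 places and no other match. A match is a description of letters and not a binding site. Among windows of members called lower in D1 controls, 32.7% of 52 held the ETS letters. Among those of the other tested members 9.52% of 21 did. In the same order, the NRF1 letters were in 21.2% and 28.6%, the YY1 letters in 15.4% and 9.52%, and the ERR letters in 5.77% and 4.76%. Any of these letters were in 57.7% and 47.6%. The 52 windows belong to 47 genes, and whether the shares differ between the sets was not tested.

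D1 and D2 neurons were first compared in controls, with the saline and cocaine groups weighted equally. Of the 84 genes, 55 were lower in D1 neurons, none was higher and 29 did not pass (limma over all tested genes, Benjamini-Hochberg adjusted p under 0.05). Over all 12017 genes, 17.1% were lower and 29% differed in either direction, and in the brightest 20% 26.7% were lower. The median difference was -0.24 over the 84 genes, against -0.03 over all genes and -0.08 in the brightest 20%. Of the 84 differences 74 were below 0, against 56.4% over all genes. With the 1 probe set used per gene the differences were small: the largest, of Ndufs5, was -0.62, a 1.54-fold lower level. Fewer cells of a type and less RNA per cell cannot be told apart in such pooled RNA, and a lower share of ribosome-bound message is not a lower amount per cell.

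Complex I held the largest share of lower genes: 27 of 33 were lower in D1 controls, with a median of -0.29. Ndufa7, an accessory subunit (probe set 1450818_a_at), read 11.12 and 10.93 in the D1 control saline arrays and 11.12, 11.13, 11.34 and 11.09 in the D1 control cocaine arrays. It read 11.55, 11.69 and 11.90 in the D2 control saline arrays and 11.29, 11.88, 11.56 and 11.62 in the D2 control cocaine arrays. The groups overlap at a single D2 cocaine array, the lowest, which lies below the highest D1 array. The difference was -0.55 ± 0.09 (SE; 6 D1 and 7 D2 arrays; adjusted p from limma 6.9e-05). Ndufs5, a small subunit of the intermembrane space, ranged from 9.13 to 10.03 (median 9.54) in D1 controls and from 9.35 to 10.39 (median 10.10) in D2 controls, and its arrays overlapped widely (adjusted p from limma 0.00803). Ndufb1, Ndufa8 and Ndufa6, further accessory subunits, differed by -0.45, -0.44 and -0.43.

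Of the core subunits of the arm of complex I that binds NADH and passes electrons on, Ndufs3, Ndufs7, Ndufs8 and Ndufv2 were lower by 0.25, 0.23, 0.26 and 0.21 on the log2 scale. Ndufs1, the largest subunit and holder of several iron-sulfur clusters, differed by 0.05 ± 0.07 (SE; adjusted p from limma 0.684), and Ndufv1, which binds NADH and flavin, by -0.12 ± 0.07 (0.183). Ndufc2 and Ndufa13 missed the threshold at -0.17 and -0.15 (0.052 and 0.0874). Of the 8 assembly factors, which help build complex I and are not part of it, Ndufaf8 (-0.50) and Ndufaf3 (-0.30) were lower and the other 6 did not pass, with a median over the 8 of -0.05. Ndufaf1, the best known of them, differed by 0.16.

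Complex II is both a respiratory complex and an enzyme of the tricarboxylic acid cycle, and Sdhb, its iron-sulfur subunit, and Sdhd, a membrane anchor, were lower in D1 controls by 0.18 and 0.23 on the log2 scale. Sdhb was barely past the threshold (adjusted p from limma 0.049) and was lost in most alternative settings, kept in 13 of 39. Sdha, the catalytic subunit (1426689_s_at), ranged from 12.32 to 12.72 (median 12.53) in D1 controls and from 12.28 to 12.52 (median 12.47) in D2 controls. The Sdha groups overlap, with the 3 highest D1 arrays above every D2 array, and the difference was 0.08 ± 0.06 (SE; adjusted p from limma 0.39). Sdhc, the other anchor, differed by -0.09 (0.299).

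Complex III showed 4 of 9 genes lower. Uqcr11, its smallest subunit (1448292_at), had the smallest adjusted p of all members. It read 12.19 and 12.10 in D1 control saline and 12.35, 12.20, 12.35 and 12.41 in D1 control cocaine arrays, against 12.72, 12.78 and 12.89 in D2 control saline and 12.31, 12.85, 12.58 and 12.59 in D2 control cocaine arrays. As for Ndufa7, the lowest D2 array was cocaine replicate 1, and it alone lay within the D1 range. The difference was -0.46 ± 0.07 (SE; adjusted p from limma 3.23e-05). Cyc1, which encodes cytochrome c1, the subunit that reduces cytochrome c, was lower by 0.41 and Uqcrq by 0.39 on the log2 scale. Uqcrq was the sole member whose D1 control arrays, 11.16 to 11.43, all lay below the D2 control arrays, 11.52 to 11.83; over all genes 4.24% had every D1 control array below every D2 control array. Another Uqcrq probe set, above 6 on 9 arrays, differed by 0.04 and thus lay on the other side of 0. The structural core proteins Uqcrc1 (-0.18, adjusted p from limma 0.0899) and Uqcrc2 (-0.03, 0.729) and the Rieske iron-sulfur protein Uqcrfs1 (-0.16, 0.0702) did not pass.

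In complex IV, 9 of 13 genes were lower in D1 controls. Cox4i1, the regulatory subunit found in most tissues (1448322_a_at), read 13.23 and 13.12 in D1 control saline and 13.37, 13.36, 13.51 and 13.30 in D1 control cocaine arrays. It read 13.67, 13.70 and 13.74 in D2 control saline and 13.27, 13.72, 13.54 and 13.70 in D2 control cocaine arrays. Again D2 cocaine replicate 1 alone fell within the D1 range. The difference was -0.35 ± 0.07 (SE; adjusted p from limma 0.000262). Cox7a2, Cox6a1, Cox8a and Ndufa4 were lower by 0.38, 0.33, 0.27 and 0.23 on the log2 scale, and Cox6b1 by 0.18. Of the isoforms known from other tissues, Cox6a2, the heart and muscle form of Cox6a1, differed by 0.14 (adjusted p from limma 0.138), Ndufa4l2 by 0.00 (0.98), and Cox8c, known from testis, was lower by 0.18 (0.0352). Cox5b, a subunit made in all tissues, missed the threshold at -0.12 (0.0594).

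In complex V, 11 of 17 genes were lower. Atp5j2, a subunit of the membrane part (1435395_s_at), read 12.43 and 12.21 in D1 control saline, 12.65, 12.51, 12.71 and 12.69 in D1 control cocaine, 12.94, 13.00 and 13.09 in D2 control saline and 12.55, 13.14, 12.86 and 13.08 in D2 control cocaine arrays. The same D2 array lay among the D1 arrays, and the difference was -0.48 ± 0.08 (SE; adjusted p from limma 9.82e-05). Atp5g1 and Atp5g2, which encode the same proton-carrying ring protein with different import signals, were lower by 0.47 and 0.38 on the log2 scale, while Atp5g3, the third gene of that protein, differed by -0.09 (0.264). Atp5l and Atp5j, of the membrane part and the stalk, were lower by 0.46 and 0.42.

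Complex V also held 6 genes that were not called. Atp5a1, the alpha subunit, read 13.38 to 13.67 (median 13.56) in D1 controls and 13.26 to 13.48 (median 13.38) in D2 controls, a difference of 0.13 ± 0.06 (SE; adjusted p from limma 0.102). Atp5b, the beta subunit with the active sites, read 13.12 to 13.57 against 13.26 to 13.48, a difference of 0.01 ± 0.09 (0.952). For neither gene did the D1 arrays lie below the D2 arrays. The others outside the catalytic head, Atp5g3, Atp5pb, Atp5mpl and Atp5o, differed by -0.09, -0.10, -0.08 and -0.07. Over 12 listed catalytic core subunits of all complexes, 6 were lower with a median of -0.17, and over the 64 other subunits 47 were lower with a median of -0.27; the difference between these lists was not tested.

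**Figure D1:**
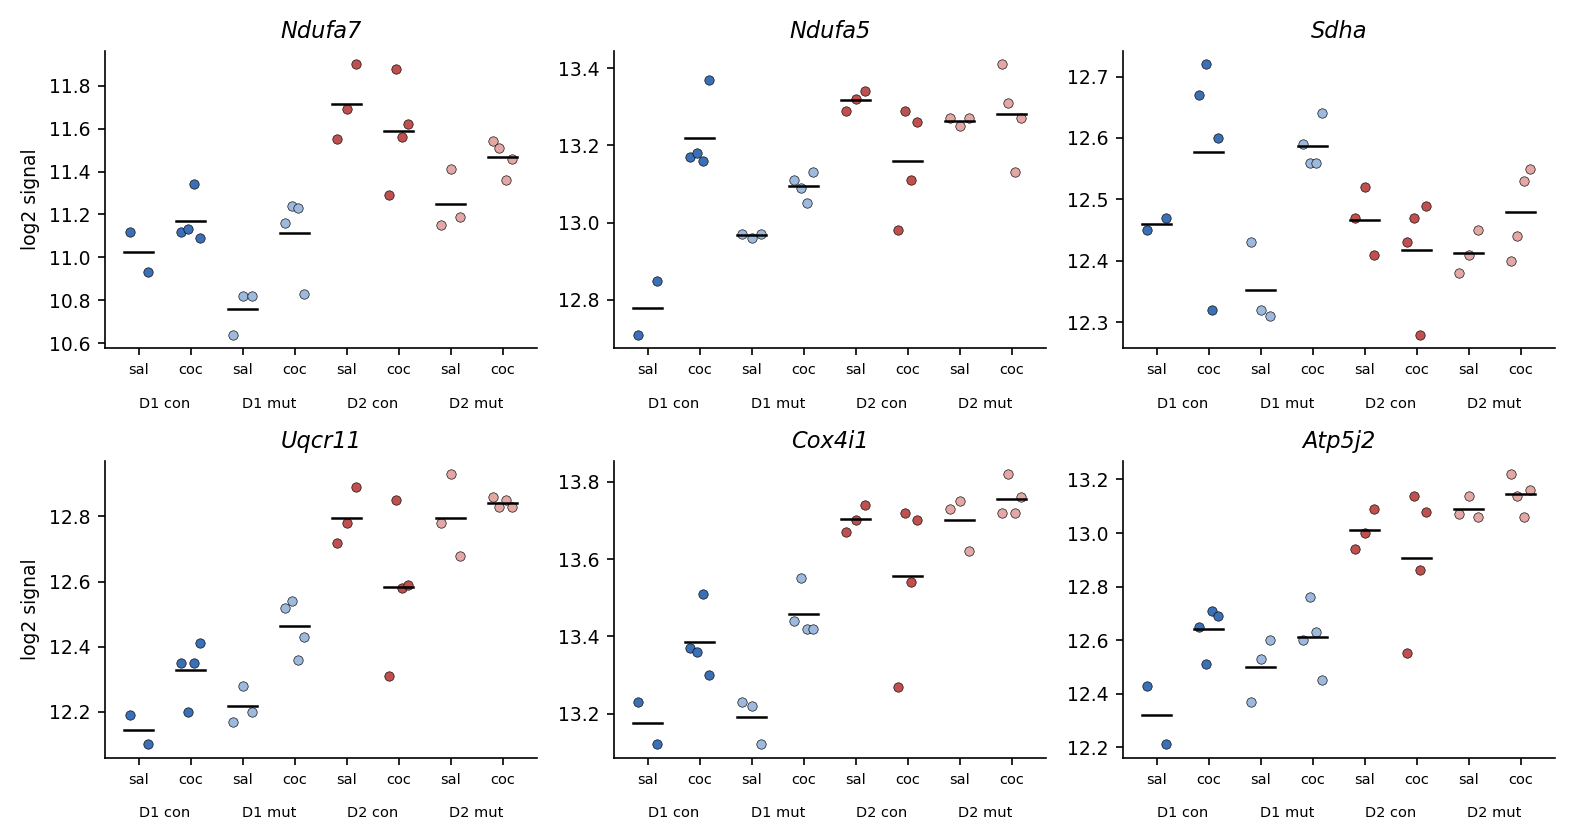
Log2 signal of 6 genes on each of the 27 arrays (points), by neuron type, genotype and drug (sal, saline; coc, cocaine; con, control; mut, mutant), with bars at group means; the vertical axes differ between genes and do not start at 0. Ndufa7, Uqcr11, Cox4i1 and Atp5j2 sit lower in D1 than in D2 arrays, with D2 control cocaine replicate 1 low in each, and Sdha does not.

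The call rested partly on single libraries. Without D1 control saline replicate 2, 1 of only 2 arrays in that group, 36 genes were lower, and without D2 control cocaine replicate 1, 60 were. After cyclic loess, a further intensity-dependent scaling between arrays, 33 genes were lower and 3 higher, and the median was -0.14. Counted over 39 settings, which leave out the stricter threshold and the single-drug contrasts, 28 of the 55 genes were lower in D1 in every one. Of the 32 lower genes with several probe sets above the floor, Uqcrq alone had probe sets on both sides of 0. Among all 46 such members 5 did: Cox5b, Ndufa10, Sdha, Uqcr10 and Uqcrq. Dimmer probe sets of Uqcr10 differed by 1.755 (above 6 on 20 arrays) and 0.363, and a dimmer probe set of Ndufa10 by 0.424.

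The mutants share no array with the controls and gave the same comparison anew. In them 66 of the 84 genes were lower in D1 neurons and none was higher, against 25.8% lower and 42.4% differing in either direction over all genes, and 38.4% lower in the brightest 20%. The median was -0.30, against -0.04 over all genes. With a score of glial markers as a covariate the count was 37 and the median -0.23. Of the genes lower here, Uqcr10, Ndufa10, Uqcrq and Atp5g1 each had another, dimmer probe set on the other side of 0, at 0.83, 0.22, 0.16 and 0.04. Of the 55 genes lower in the controls 52 were lower here, 94.5% of that list and 78.8% of the mutants' list. Lower in the controls alone were Ndufs5, Cox8a and Cox8c, and the difference between genotypes was below the adjusted threshold for none of them.

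By complex, 31 of 33 genes of complex I, 3 of 8 assembly factors, 2 of 4 of complex II, 8 of 9 of complex III, 8 of 13 of complex IV and 14 of 17 of complex V were lower in D1 mutants. Cyc1 read 12.29, 12.32 and 12.22 in D1 mutant saline and 12.41, 12.67, 12.39 and 12.60 in D1 mutant cocaine arrays, against 12.96, 13.19 and 12.97 in D2 mutant saline and 12.95, 13.24, 13.06 and 13.15 in D2 mutant cocaine arrays. Every D1 array lay below every D2 array, and the difference was -0.67 ± 0.08 (SE; 7 and 7 arrays; adjusted p from limma 1.37e-07). Ndufb1, Atp5l, Atp5j2, Ndufb3 and Atp5d, the delta subunit of the rotor, differed by -0.64, -0.62, -0.56, -0.56 and -0.46. In 39 of the 84 genes no D1 mutant array reached the lowest D2 mutant array, against 11.5% of all genes.

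Several core subunits that did not pass in the controls passed in the mutants: Ndufs1 at -0.28, Ndufv1 at -0.23, Uqcrc1 at -0.22, Uqcrc2 at -0.20 and Uqcrfs1 at -0.28. Of the 12 catalytic core subunits 9 were lower, with a median of -0.28, close to the -0.32 of the 64 other subunits. Sdha (0.02), Atp5a1 (0.03) and Atp5b (0.05) again did not differ beyond their errors of 0.06, 0.05 and 0.08. That left 15 genes called in neither genotype, among them Sdha, Atp5a1, Atp5b, Ndufa9 and 5 of the assembly factors.

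**Figure D2:**
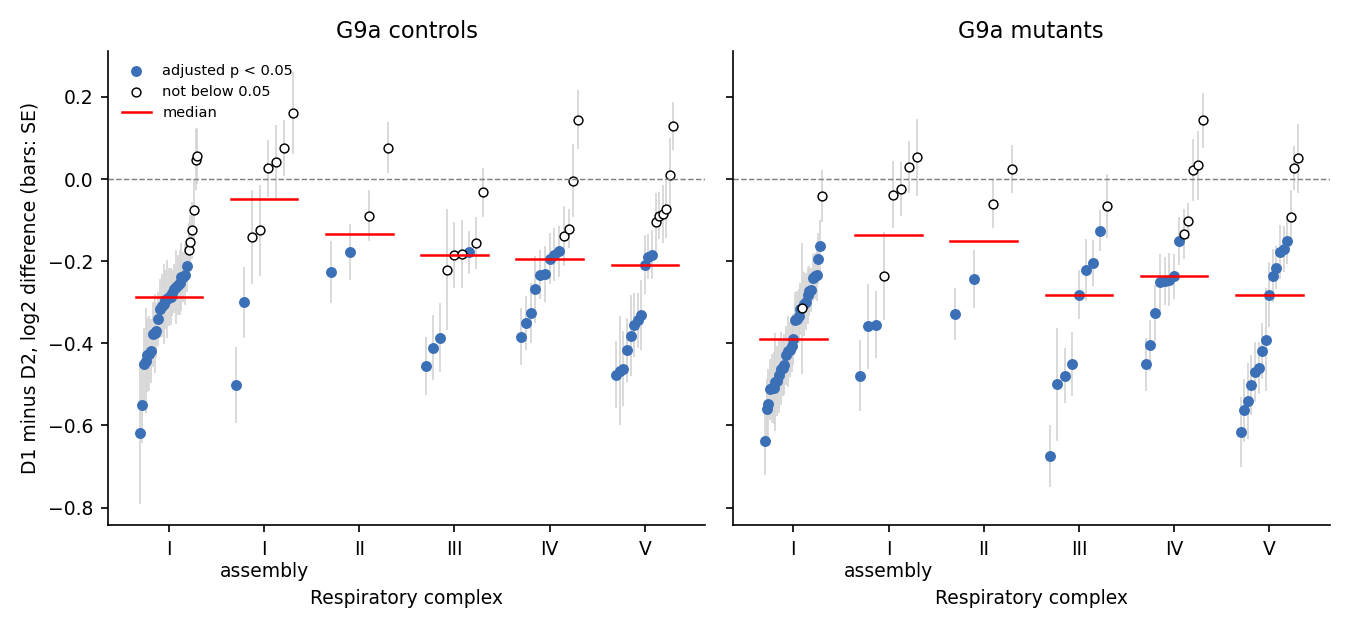
D1 minus D2 log2 difference of each of the 84 tested genes with its SE, by respiratory complex, in G9a controls and in G9a mutants; filled points have an adjusted p below 0.05, open points do not, and red lines are the medians of a complex. Filled points lie below 0 in every complex, 55 in controls and 66 in mutants, and the complex I assembly factors have the median nearest 0.

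The mean of the 84 genes per array, each gene taken as its deviation from its own mean over the 27 arrays, shows how the arrays are placed. It was -0.25 and -0.26 in D1 control saline, -0.08, -0.10, 0.04 and -0.07 in D1 control cocaine, -0.25, -0.21 and -0.18 in D1 mutant saline and -0.07, -0.00, -0.10 and -0.11 in D1 mutant cocaine arrays. It was 0.03, 0.16 and 0.19 in D2 control saline, -0.16, 0.16, -0.00 and 0.14 in D2 control cocaine, 0.10, 0.16 and 0.09 in D2 mutant saline and 0.21, 0.22, 0.15 and 0.19 in D2 mutant cocaine arrays. Both groups of D1 saline arrays are the lowest, the D2 mutant arrays are all above every D1 array, and D2 control cocaine is the group with the widest spread. The pooled SD within groups was 0.07. Over all tested genes the same mean kept between -0.09 and 0.08 on every array. Ttr, a choroid plexus gene, stood high in 3 arrays, replicate 3 of D1 mutant saline, of D2 control cocaine and of D1 control cocaine, and without them 57 genes were lower in D1 controls and 67 in D1 mutants.

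**Figure D3:**
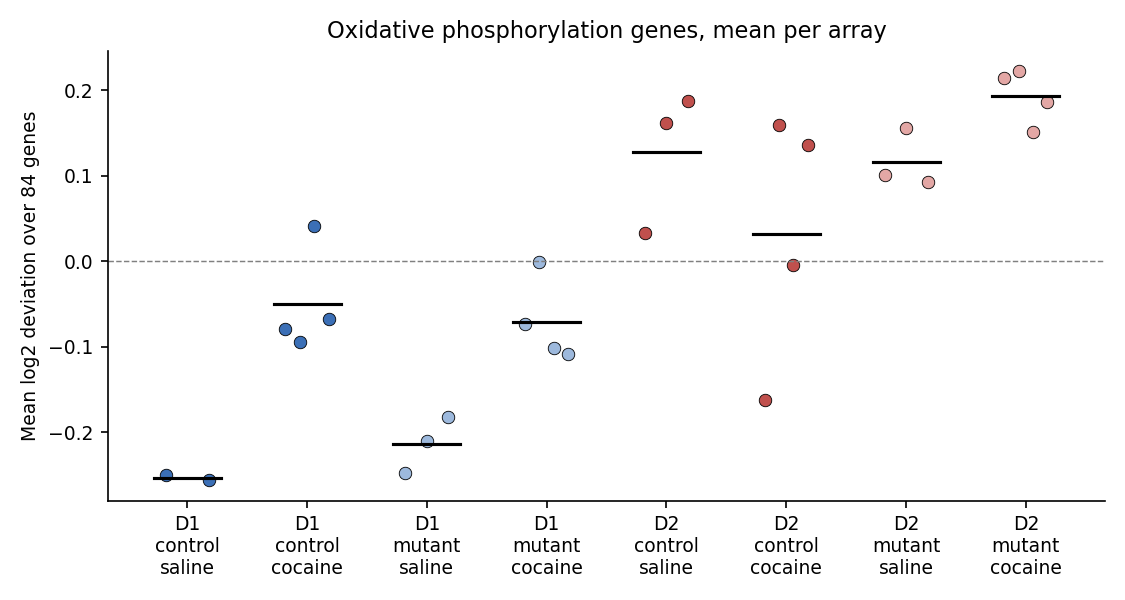
Mean log2 deviation of the 84 genes on each array (points) from each gene's mean over all 27 arrays, by group, with bars at group means. D1 saline arrays lie between -0.26 and -0.18 and D2 mutant arrays between 0.09 and 0.22; 1 D2 control cocaine array lies at -0.16.

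Within the drug groups the size of the difference was not the same in the controls. In saline controls 52 genes were lower in D1 and none was higher, against 11.4% lower over all genes, with a median of -0.42. In cocaine controls 6 were lower (Ndufa7, Cyc1, Uqcr11, Uqcrq, Atp5d and Atp5l), against 8.45% of all genes, 2 were higher (Ndufaf6 and Atp5a1), and the median was -0.08. Complex I went from a median of -0.50 in saline to -0.11 in cocaine controls, and complex IV from -0.43 to 0.02. In the mutants the drug groups were closer: 51 genes were lower in saline arrays, against 15.4% of all genes, with a median of -0.32, and 47 in cocaine arrays, against 17.5%, with a median of -0.29. Whether the subtype difference depends on the drug in controls is tested below gene by gene.

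**Figure D4:**
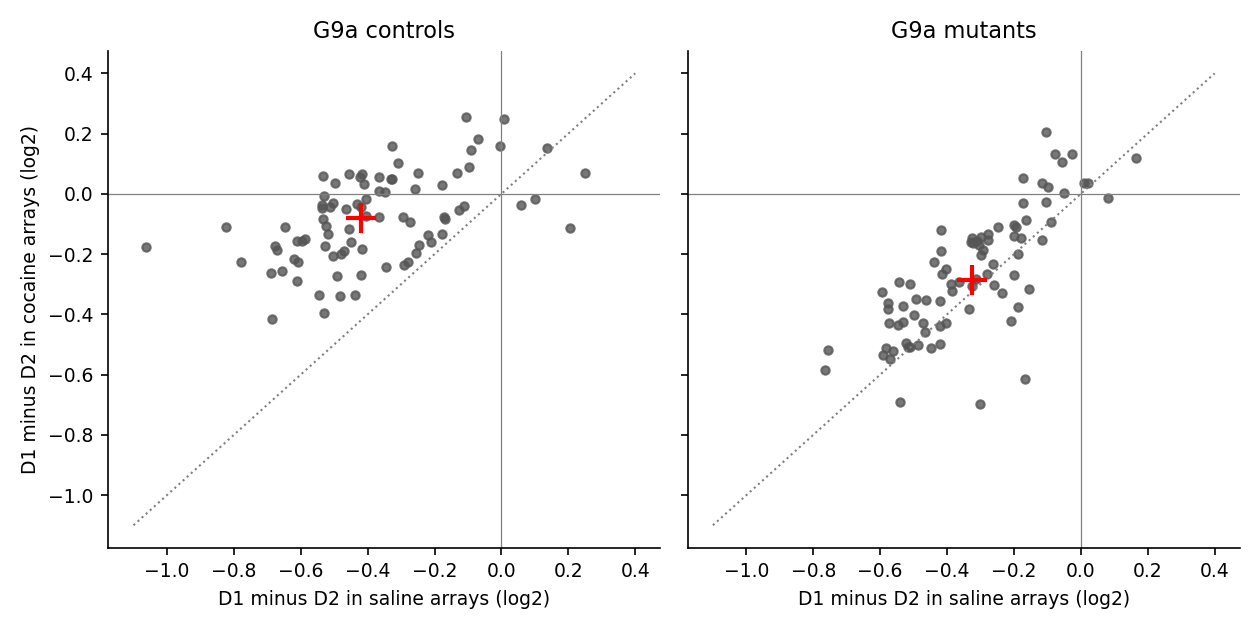
D1 minus D2 log2 difference of each of the 84 genes in saline arrays (horizontal axis) and in cocaine arrays (vertical axis), in G9a controls and G9a mutants; the dotted line marks equal differences and the red cross the medians. In controls most points lie above the line (medians -0.42 and -0.08), and in mutants they lie around it (-0.32 and -0.29).

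Repeated cocaine was then compared with saline in each neuron type and genotype. In D1 controls no member passed the adjusted threshold with limma, against 0.0666% of all genes, and 38 members were higher and none lower at an unadjusted p under 0.05, against 8.29% of all genes that were higher. The median was 0.22 (all genes 0.03). Of the 84 differences 76 were above 0 and 8 below, while 42.5% of all genes lay below 0. Ndufa5, an accessory subunit of complex I (1417285_a_at), read 12.71 and 12.85 after saline, and after cocaine it read 13.17, 13.18, 13.16 and 13.37. The groups do not overlap, and the difference was 0.44 ± 0.09 (SE; 2 and 4 arrays; adjusted p from limma 0.0603). Cox6c and Atp5h, small subunits of complexes IV and V, differed by 0.41 ± 0.10 and 0.31 ± 0.08 (0.116 and 0.139). With arrays weighted by their quality 17 members were called, so this result depends on that choice. The share of all genes called with these weights is not given here. Without D1 control cocaine replicate 3, 2 members were called. Without D2 control cocaine replicate 1 or D2 mutant cocaine replicate 3, which enter only the shared estimate of spread, 1 was.

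In D1 mutants cocaine arrays were also higher in most members, with none past the adjusted threshold in limma (0.0915% of all genes) and 22 higher at an unadjusted p under 0.05 (8.3% of all genes), with a median of 0.14. Atp5d read higher by 0.38 ± 0.09 (adjusted p from limma 0.0844), Uqcrc1 by 0.40 ± 0.11 and Ndufa3 by 0.28 ± 0.07. Quality weights gave 5 calls and leaving out D2 control cocaine replicate 1 gave 1. In D2 controls no member passed in limma (0.133% of all genes) and 8 were lower at an unadjusted p under 0.05, against 9.4% of all genes in either direction, with a median of -0.10. The lowest adjusted p was that of Cox7a2l, a factor in the assembly of respiratory supercomplexes, at -0.24 ± 0.08 (0.304), and Cox8a differed by -0.31 ± 0.11. In D2 mutants none passed (0% of all genes) and 4 were higher at an unadjusted p under 0.05 (4.89% of all genes), with a median of 0.07. No member's cocaine effect differed between mutants and controls at the adjusted threshold in limma, in D1 or in D2 neurons (0% and 0% of all genes), and 9 and 9 differed at an unadjusted p under 0.05, against 11.2% and 4.85% of all genes.

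The cocaine effect in D1 controls minus that in D2 controls had a median of 0.33 over the 84 members (all genes 0.08). This difference of effects was above 0 for 80 members and below 0 for 4, while 36.2% of all genes lay below 0. It passed for Ndufa5 alone, 0.59 ± 0.12 (adjusted p from limma 0.0461), against 0.141% of all genes, and 43 members were higher at an unadjusted p under 0.05, against 11.1% of all genes. The 4 groups behind the value were D1 control saline and cocaine, given above for Ndufa5, and D2 control saline at 13.29, 13.32 and 13.34 and cocaine at 12.98, 13.29, 13.11 and 13.26. Both D1 saline arrays lie below all other control arrays. The call was lost when any of 19 arrays was left out and with median centring (0.0863) or cyclic loess (0.246), while quality weights gave 18 calls. Without D2 control cocaine replicate 4 the count was 9, and without D1 control cocaine replicate 3 it was 3. The RNA quality measure, the 3′ minus 5′ signal of Gapdh and Actb control probes, was 2.01 and 1.96 in D1 control saline and 2.17 to 2.90 in D1 control cocaine arrays, and its part in the result was not tested apart from the fit that holds it as a covariate, in which no member passed.

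G9a loss changed few of the genes. In D1 neurons no member passed in limma, against 4.22% of all genes, and 2 did at an unadjusted p under 0.05, against 13.3%; the median was 0.02. The genes nearest to a call were Cox7a2l at 0.14 ± 0.06 (adjusted p from limma 0.308) and Uqcrc1 at -0.18 ± 0.08 (0.33). In D2 neurons 4 members passed, against 12.2% of all genes: Cyc1 and Cox7a2l rose by 0.25 and 0.19 on the log2 scale, and Ndufa7 and Cox8a fell by 0.29 and 0.25. The median was 0.08, against 0.02 over all genes. Of the 84 differences 71 were above 0 and 13 below, while 44.8% of all genes lay below 0.

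Cyc1 in the D2 arrays ranged from 12.56 to 13.02 (median 12.80) in controls and from 12.95 to 13.24 (median 13.06) in mutants, and the 2 highest control arrays lay within the mutant range. The difference was 0.25 ± 0.08 (SE; 7 and 7 arrays; adjusted p from limma 0.0254). Ndufa7 ranged from 11.29 to 11.90 (median 11.62) in D2 controls and from 11.15 to 11.54 (median 11.41) in D2 mutants, and the groups overlap. Cox8a read 11.31, 11.36 and 11.40 in D2 control saline and 10.96, 11.13 and 10.67 in D2 mutant saline arrays, which do not overlap, and in the cocaine groups 10.99, 11.06, 11.20 and 10.94 against 10.97, 10.99, 11.12 and 10.90, which do. For Cox8a the effect was -0.44 in saline and -0.05 in cocaine arrays, and for Cox7a2l it was 0.01 in saline and 0.38 in cocaine arrays.

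These 4 calls were not firm. The count was 2 with a glial marker covariate. It was 0 with D2 mutant cocaine replicate 4 counted as control, the group its source name gives. However, Ehmt2 was at most 9.38 on all D2 mutant arrays, this array included, and at least 10.67 in D2 controls. That fit thus counts an array with the Ehmt2 level of the mutants as a control. The count was 1 without D2 control saline replicate 3 or D2 mutant saline replicate 3, and 2 without D2 control cocaine replicates 1 or 3, D2 control saline replicate 1 or D2 mutant saline replicate 2, and 6 without D2 control cocaine replicate 4. The effect of G9a loss in D2 minus that in D1 passed for no member in limma (0.99% of all genes), with 6 at an unadjusted p under 0.05 (12.3% of all genes), and array weights gave 1 call. The smallest adjusted p was 0.141, and the median was 0.06.

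**Figure D5:**
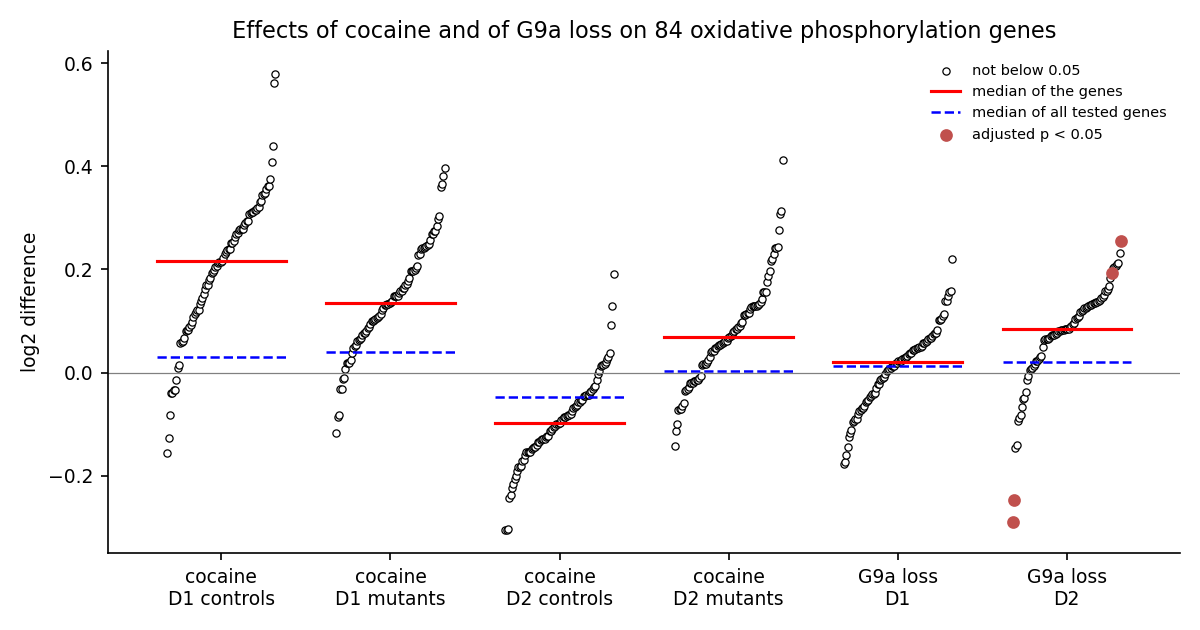
Log2 differences of the 84 genes for cocaine minus saline in 4 groups and for G9a mutant minus control in D1 and D2 neurons, sorted within each comparison; filled points have an adjusted p below 0.05, red lines are the medians of the genes and blue dashed lines those of all tested genes. The medians are 0.22 and 0.14 for cocaine in D1 controls and mutants, -0.10 and 0.07 in D2, and the 4 filled points all belong to G9a loss in D2.

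Cells other than MSN can contribute RNA to a pull-down, whether or not they carry the tag. Markers of several such types moved with the neuron type. In both genotypes the 2 tested cholinergic interneuron markers were lower in D1 (Lhx8 differed by -2.75 in controls and -3.86 in mutants) and the 4 tested cortical excitatory markers higher, though Slc17a7 and Chat never exceeded 6. Of 6 tested GABAergic interneuron markers 4 were higher in D1 in each genotype, with 1 lower in mutants. Of 12 markers of MSN of both types 4 were lower in controls and 6 in mutants, with 1 higher in each. With G9a loss in D2, 4 of 9 tested D1 MSN markers were higher, against 12.2% of all genes called in either direction. Of 7 D2 MSN markers 2 were higher and 1 lower, and of 2 cholinergic markers 1 was higher. Drd1 rose by 0.54 and Drd2 fell by 0.49 on the log2 scale (adjusted p from limma 0.00113 and 0.00315). Of 12 listed oligodendrocyte markers 10 were on the array and 9 were tested; 6 were lower in D1 controls and 8 in D1 mutants, and 7 were higher in D2 mutants than in D2 controls. Their summed level (log2) ranged from 11.61 to 12.02 in D1 controls, 11.54 to 12.49 in D2 controls, 11.59 to 12.21 in D1 mutants and 12.56 to 12.94 in D2 mutants, and Mog, a defining marker, was at background on every array. Astrocyte markers went the other way in controls, 2 of 6 tested being higher in D1, with summed levels of 10.71 to 11.62 against 10.03 to 10.77, and 7 of 8 microglial markers on the array never exceeded 6. The glial score given above averages astrocyte, oligodendrocyte and microglial markers into 1 value, although the first 2 kinds went opposite ways in controls. It holds no neuronal markers, and the part of any single cell type in the differences was not tested. The RNA quality measure averaged 2.29 in D1 and 2.20 in D2 controls (exact permutation test, 2-sided, p = 0.62; adjusted over 6 comparisons 0.906).

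Other genes of the pathway and its surroundings were taken as lists, chosen with earlier results of these arrays known; their counts stand against 17.1% of all genes lower in D1 controls and 25.8% in D1 mutants, and several are near that. Of 44 assembly and maturation factors outside the rule, 19 were lower and 2 higher in D1 controls, with a median of -0.18; Sdhaf1, which helps insert iron-sulfur clusters into complex II, differed by -0.63, Cox18, an inserter of complex IV, by -0.56, and Uqcc2, a complex III factor, by -0.44. Among 13 genes of the mobile carriers and coenzyme Q synthesis, 3 were lower and 1 higher; Cycs, the cytochrome c of most tissues, was lower by 0.20 on the log2 scale (adjusted p from limma 0.0381) and Coq2 by 0.53. Of 8 genes for the exchange of ATP and phosphate 2 were lower, the mitochondrial and cytosolic creatine kinases Ckmt1 (-0.52) and Ckb (-0.26).

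The transcriptional regulators of mitochondrial biogenesis were mixed, with 4 of 18 lower and 2 higher in D1 controls. Nrf1, the nuclear respiratory factor, was higher by 0.60 ± 0.15 (adjusted p from limma 0.00399) and Tfb2m, a mitochondrial transcription factor, lower by 0.48 on the log2 scale. Esrra, an estrogen-related receptor, was lower by 0.28, while Ppargc1a, their coactivator, differed by 0.12 (0.326), Gabpa by -0.14 (0.369), Yy1 by -0.08 (0.724) and Tfam by -0.15 (0.158). In mutants Nrf1 was again higher, by 0.775, and Tfb2m lower, at -0.531 (adjusted p from limma 0.000109 and 7.8e-06). Esrra did not pass there, at -0.107 (0.188). These are levels of ribosome-bound message and say nothing of the activity of the factors.

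Neighbouring parts of energy metabolism did not share the pattern evenly. Of 20 genes of the tricarboxylic acid cycle and pyruvate dehydrogenase list, 3 were lower in D1 controls (Mpc1, Ogdh and Suclg1), with a median of -0.02, and 10 in D1 mutants, with a median of -0.17. Of 18 glycolysis genes none was lower and 5 were higher in D1 controls, among them Hk1 (0.50), Ldha (0.34) and Aldoc (1.05), which is also an astrocyte marker, with a median of 0.01; in mutants 4 were higher and 2 lower. The ribosomes showed shifts as large as or larger than those of the respiratory chain: 38 of 76 mitochondrial ribosomal proteins were lower in D1 controls, with a median of -0.24, and 62 in D1 mutants, with a median of -0.44. Of 45 cytosolic ribosomal proteins 38 were lower and 2 higher in D1 controls, with a median of -0.43, and 39 were lower in D1 mutants, with a median of -0.53. Of the 84 genes 72 were among the brightest 20% of those tested, and message length was not looked at. Whether lists differ from each other was not tested.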

How the data were processed

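The authors deposited 1 table of log2 values for 45101 probe sets on 27 arrays, which the submitters' processing notes give as RMA (Affymetrix Expression Console 1.1), while the design text names global scaling for the scans. Of the probe sets 34945 name 1 gene (64 controls, 932 several genes, 9160 none), from the 2016 array annotation. Each gene was given its probe set with the highest mean. Genes above 6 (log2) in at least 3 arrays were fitted in limma 3.58.1 (R 4.3.3) with 1 mean per group over all 27 arrays, and p-values were adjusted by Benjamini-Hochberg over all 12017 genes within a contrast. RMA sets all arrays to 1 distribution (medians 5.70 to 5.82), so differences are relative to the other messages on an array. The number of arrays limits the precision. The arrays were taken as the replicates. Same-numbered arrays across groups did not as a rule deviate together (83 pairs, correlation -0.40 to 0.47, median 0.01), though 25 pairs lay above 0.1. The numbers were not treated as pairs.

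The members and lists were chosen with earlier results of these data known. Genes were named by rule: per complex up to 5 called members with the largest difference between D1 and D2 controls and up to 2 uncalled with the smallest p, in other contrasts up to 6 called or the 3 nearest, tissue-restricted isoforms with their partners, and catalytic core subunits. The contrasts, covariates and scalings of the closing section were run on the same table. The model was tested on simulated data.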

Additional observations from a re-analysis of the deposited data

Results flagged for a closer look

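In each group of 4 arrays the levels of the named genes and the complex means were checked for an array far from the others, in 120 tests over 30 measures. Chance alone marks about 1 in 20 groups, and 3 were marked, all in D1 control cocaine. The mean deviation of complex III was -0.039 in replicate 3 against -0.108 to -0.1 in the others. Atp5l read 10.893 in replicate 3 against 10.492 to 10.54 in the others. Ndufa5 read 13.372 in replicate 4 against 13.157 to 13.179 in the others. In each case the gap to the nearest array took 0.885, 0.88 and 0.899 of the group's range, where the limit for 4 arrays is 0.829.

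The cocaine effect on Ndufa5 differed between D1 and D2 controls by 0.593 on the log2 scale in a test of the difference itself (adjusted p from limma 0.0461). The array of Ndufa5 marked above belongs to that comparison. Their parts in it were not tested beyond the fits that leave out each array.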

How the results depend on the processing

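The lower level of these genes in D1 neurons kept its direction in both genotypes under every setting run, with medians below 0. In controls the count was 36 (3 higher and 33 lower) and the median -0.14 after cyclic loess, the count was 35 at an adjusted p under 0.01, the median was -0.42 in saline arrays alone, and in cocaine arrays alone the count was 8 and the median -0.08. Leaving out single arrays gave 36 to 60 calls. In mutants the median was -0.17 after cyclic loess, a glial covariate gave 37 and -0.23, and single arrays 59 to 66 calls. G9a loss in D2 gave 8 calls with array weights, and 2 and a median of 0.013 with the glial covariate. It gave 2 calls and a median of -0.002 in saline arrays, and a median of 0.17 in cocaine arrays. The count was 0 at 0.01 and 1 to 6 without single arrays. With D2 mutant cocaine replicate 4 as control it was 0, although the Ehmt2 level of that array lay among the mutants. The effect of G9a loss in D2 minus that in D1 gave 1 call with weights. Its medians were -0.063 in saline and 0.19 in cocaine arrays. Cocaine in D1 controls gave 1 call each with a floor of 7, a trended prior and the glial covariate, 17 with weights, 2 without the 3 arrays high in Ttr, a choroid plexus gene, a median of 0.092 after cyclic loess, and 0 to 2 calls without single arrays. In D1 mutants weights gave 5 calls, cyclic loess a median of 0.005, and single arrays 0 to 1. Cyclic loess gave medians of -0.006 in D2 controls and 0.075 for the genotype difference in D2. The cocaine difference between D1 and D2 controls gave 2 calls with mean probe sets, 5 with a trended prior, 18 with weights, 0 to 9 without single arrays (medians 0.249 to 0.383), and 0 without the filter, after cyclic loess (median 0.12), median centring, with RNA quality or the glial covariate, without the arrays high in Ttr and at 0.01. In cocaine arrays alone 7 of the 55 genes lower in controls lay above 0, without a call: Cox6b1 (0.067), Uqcrb (0.01), Ndufa5, Cox6c, Cox7a2l, Atp5h and Atp5md, at 0.01 to 0.067. The causes were not tested. Apart from the single-drug contrasts, no share of all genes called is given for these settings, so their counts stand without that comparison.

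With the replicate number as a block 52 genes were lower in controls and 63 in mutants, 4 were called for G9a loss in D2 and 1 for the cocaine difference, so the pairing moved no count by over 1.5 times. Of 3320 further values for named genes 3055 kept direction and side of the threshold, 181 lost a call and 55 gained one. A further 27 changed sign without a call, and 2 were reversed. D1 control saline holds 2 arrays, and the number of arrays limits the precision.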

Other observations

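With G9a loss in D2 neurons, 10 of 45 tested cytosolic ribosomal proteins were higher and 1 lower, and 10 of 76 mitochondrial ribosomal proteins were higher, against 12.2% of all genes called in either direction; the share of the mitochondrial list is near that of all genes. Esrra, an estrogen-related receptor, fell by 0.35 on the log2 scale with G9a loss in D2 neurons (adjusted p from limma 0.000419).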
